A study of Mus musculus with 6 samples.

Results

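The 2 miRNAs made from the miR-139 hairpin, mmu-miR-139-5p and mmu-miR-139-3p, were followed probe by probe in mouse left ventricle after sunitinib, a cancer drug that inhibits receptor tyrosine kinases. They are 2 of the 1881 mouse miRNAs on the array, found as the spots and value-table entries whose systematic name equals theirs, and both are among the 237 miRNAs tested. The pair was chosen from the contrast of sunitinib with control: in an earlier analysis of these data miR-139-5p had the smallest adjusted p among the higher miRNAs that did not pass, and miR-139-3p was taken as the other arm of the same hairpin. Their own differences between the groups are therefore a description and carry no test. Total RNA came from heart left ventricle of male C57BL/6 mice, 3 samples from mice given sunitinib and 3 from control mice given vehicle. The labels give no dose, duration or age, and no genetic change in either group. Each sample was labelled with Cy3 and hybridised alone to an Agilent mouse miRNA array. Whether the samples came from separate animals is not stated in the labels, and p-values then measure only the spread among the 6 samples, which may be technical.

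A miRNA is cut by Drosha and then Dicer from a hairpin, which can release one mature miRNA from each arm, and the arm kept in an Argonaute protein pairs with messenger RNAs mainly through its seed, bases 2 to 8. The miR-139 hairpin lies inside Pde2a, which encodes a phosphodiesterase that hydrolyses cyclic AMP and cyclic GMP, and this was the only gene span holding it in the RefSeq table. miR-139-5p is known as a growth-restraining miRNA that is low in many human carcinomas, with IGF1R and ROCK2 among its reported targets in human cancer cells. The tissue was whole ventricle, in which fewer cells of a type and less RNA per cell cannot be told apart.

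The 2 mature miRNAs and their hairpin are shown because the probes of each arm differ only in how far they reach toward the seed. Sequences are those of RefSeq with build GRCm38.p6, where both arms matched by name. The hairpin lies on the plus strand at chr7:101475376-101475443, with the 5p arm at chr7:101475382-101475403 and the 3p arm at chr7:101475418-101475439. Capitals mark the seed in the mature miRNAs and both mature arms in the hairpin.
mmu-miR-139-5p: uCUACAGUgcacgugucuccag
mmu-miR-139-3p: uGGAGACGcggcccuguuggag
Mir139 hairpin: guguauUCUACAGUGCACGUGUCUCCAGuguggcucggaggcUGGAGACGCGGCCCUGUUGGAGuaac
Each arm is 22 bases long, and the seeds of the arms, CUACAGU and GGAGACG, were each shared by 0 of the other mature miRNAs among the 1679 names in the table.

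The array carries 3 probes for miR-139-5p and 2 for miR-139-3p, all ending at the same base of their arm (the 3′ end of the miRNA) and nested within each other. The deposited files hold their letters and do not map them to the genome. Capitals mark the bases a probe has beyond the shortest probe of its arm.
A_54_P2605, miR-139-5p: ctggagacacgtgca
A_54_P2606, miR-139-5p: ctggagacacgtgcaC
A_54_P4388, miR-139-5p: ctggagacacgtgcaCT
A_54_P2609, miR-139-3p: ctccaacagggcc
A_54_P2610, miR-139-3p: ctccaacagggccG
The miR-139-5p probes have 15, 16 and 17 bases and pair with 1, 2 and 3 bases of the seed, in that order. The miR-139-3p probes have 13 and 14 bases, pair with 0 seed bases and have a GC content of 69.2% and 71.4%. An exact match to a mature miRNA other than its own was found for 0 of the 5 probes.

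All values below are log2 of the processed spot signal, scaled between arrays and floored at 1, and then averaged for each probe. A spot counts as well above background by the scanner software's own mark, and a probe counts so where 50% or more of its spots on that array do. The 17-base probe of miR-139-5p, the brightest of the 3, read 7.86, 7.76 and 7.72 in sunitinib hearts, against 7.39, 7.48 and 7.51 in control hearts. Every sunitinib array lay above every control array, with a gap of 0.20 between the lowest sunitinib and the highest control value. The 16-base probe read 6.82, 6.73 and 6.83 in sunitinib hearts, against 6.46, 6.50 and 6.59 in control hearts. Here too the groups did not overlap, with a gap of 0.14. The 15-base probe read 4.88, 4.65 and 4.97 in sunitinib hearts, against 4.57, 4.64 and 4.67 in control hearts. For this probe the groups overlapped, since sunitinib replicate 2 lay below control replicate 3. Such a complete separation with sunitinib above was thus present for 2 of the 3 miR-139-5p probes, and for 63 of the 393 probes detected in that sense on all 6 arrays (16.0%). The probes hybridised to the same 6 samples and overlap in sequence, so they are not independent measurements of the difference.

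In linear scaled signal the 17-base probe read 232, 217 and 211 units in sunitinib hearts, against 168, 179 and 183 units in control hearts. Its log2 values averaged 7.78 ± 0.07 in sunitinib and 7.46 ± 0.06 in control (SD, n = 3 each), with a difference of 0.32 (SE 0.05) or 1.24-fold. The SEs of probe differences come from the SDs of the groups, while limma's SE for the 17-base probe was larger, at 0.07. The 16-base probe averaged 6.79 ± 0.06 in sunitinib and 6.52 ± 0.07 in control, a difference of 0.27 (SE 0.05) or 1.21-fold. The 15-base probe averaged 4.83 ± 0.17 in sunitinib and 4.62 ± 0.05 in control, a difference of 0.21 (SE 0.10) or 1.16-fold. All 3 differences were thus above 0 and larger than the pooled SD between replicates, which was 0.07, 0.06 and 0.12 for the probes of 17, 16 and 15 bases. A comparison of a miRNA's 2 brightest probes was possible for 165 miRNAs, and the group differences of both had the same sign for 142 of them. The gap between the 2 differences, next brightest minus brightest, was -0.04 for miR-139-5p, against a median absolute gap of 0.05 and a 90th percentile of 0.13 over the 165.

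**Figure D1:**
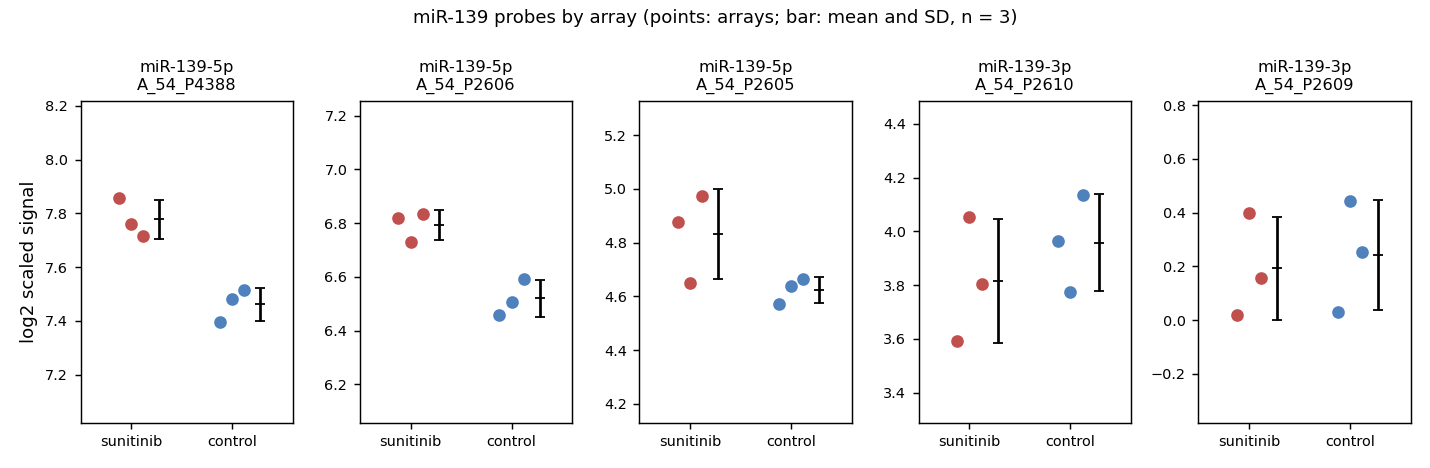
Mean log2 scaled signal of each miR-139 probe on each array, with sunitinib arrays left of control arrays in every panel and the group mean with its SD (n = 3 each) beside the points. The 17-base and 16-base miR-139-5p probes separate the groups, and the remaining probes overlap.

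The longer miR-139-3p probe read 3.59, 4.05 and 3.80 in sunitinib hearts, against 3.97, 3.77 and 4.13 in control hearts. The groups overlapped, and the lowest of the 6 values was in sunitinib replicate 1 and the highest in control replicate 3. It averaged 3.82 ± 0.23 in sunitinib and 3.96 ± 0.18 in control (SD, n = 3 each), a difference of -0.14 (SE 0.17), smaller than its error and equal to 0.907-fold. The shorter miR-139-3p probe passed the background mark on 0 of 6 arrays, with log2 values of 0.02, 0.40 and 0.16 in sunitinib hearts, against 0.03, 0.44 and 0.25 in control hearts. These values lie near the floor, so no fold is given for it. The only miR-139-3p measurement above background thus came from 1 probe.

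The spots behind these means varied less for the 17-base and 16-base miR-139-5p probes than for the longer miR-139-3p probe. The range of the 15-base probe overlapped that of the longer miR-139-3p probe. Each miR-139-5p probe was printed in 10 spots per array, all of them well above background on all 6 arrays. Over spots of one array the 17-base probe had a coefficient of variation of 2.75% to 9.61%, the 16-base probe 3.82% to 8.37%, and the 15-base probe 7.32% to 15.9%. Each miR-139-3p probe was printed in 15 spots. The longer probe had 11, 10 and 10 spots well above background on the sunitinib arrays, against 15, 11 and 15 on the control arrays. Its coefficient of variation over spots ran from 14.0% to 27.0%. The shorter probe had 0 or 1 such spot per array. Spots marked as outliers by the scanner software, which were left out, numbered 2 for the 17-base probe, 2 for the shorter miR-139-3p probe and 0 for the other 3.

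**Figure D2:**
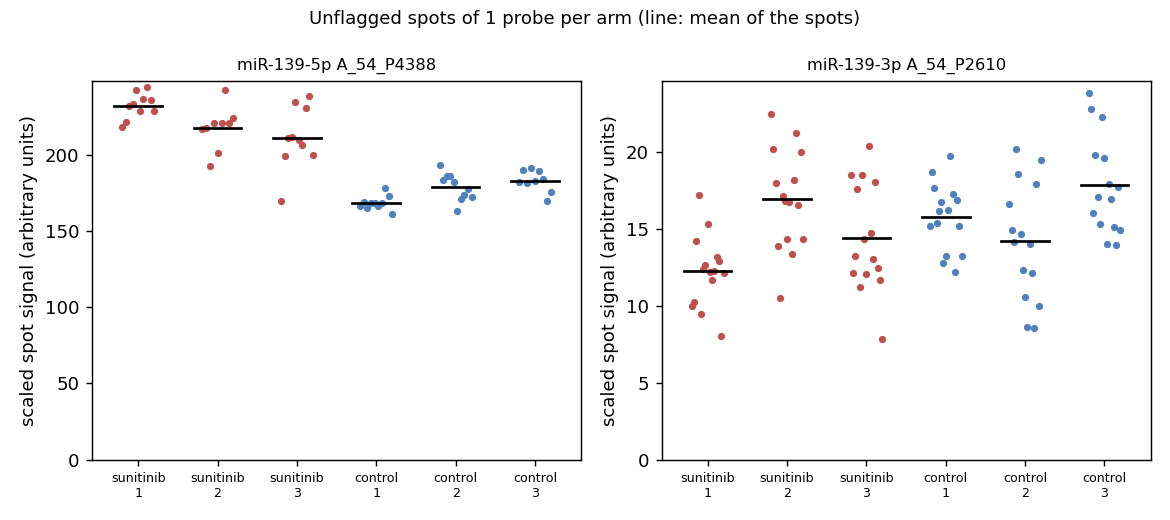
Scaled signal of every spot not marked as an outlier (points, arbitrary units) of the 17-base miR-139-5p probe and of the longer miR-139-3p probe on each array, with the array's mean as a line and sunitinib left of control. Array means of the miR-139-5p probe are 211 to 232 in sunitinib and 168 to 183 in control, while the miR-139-3p spots of both groups cover much the same range.

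With the brightest probe standing for each miRNA, limma with Benjamini-Hochberg adjustment called 8 of the 237 tested miRNAs at an adjusted p of 0.05, 4 higher and 4 lower in sunitinib (3.38%), and 0 of the 2 miR-139 arms. Without scaling between arrays the split of calls was 1 higher and 3 lower, and with quantile normalisation it was 0 higher and 4 lower. Leaving out sunitinib replicate 2, with the scaling and the detection filter computed anew, called 17 of 242 miRNAs (7.02%), among them 1 of the 2 arms, miR-139-5p. In the 22 alternatives planned earlier, 0 called either arm, among them the one that left out sunitinib replicate 2 with scaling and filter kept, which made 4 calls. With the rescaling, the difference of miR-139-5p was 0.35 and that of miR-139-3p -0.23. Since the contrast chose the pair, neither count is evidence about it. On the slide, sunitinib replicates 1 and 2 lay in one row and the other 4 arrays in the other. Within the row that held both groups, 1 sunitinib against 3 control arrays, the differences were 0.25 for the 17-base probe, 0.31 for the 16-base, 0.35 for the 15-base and -0.15 for the longer miR-139-3p probe.

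Within each array the log2 value of the brightest miR-139-5p probe minus that of the brightest miR-139-3p probe changes only with both probes' own signals, since the scaling cancels. This difference was 4.27, 3.71 and 3.91 in sunitinib hearts, against 3.43, 3.71 and 3.38 in control hearts. Sunitinib replicates 1 and 3 lay above all control arrays, while sunitinib replicate 2 and control replicate 2 had nearly the same value. The means were 3.96 ± 0.28 in sunitinib and 3.50 ± 0.18 in control (SD, n = 3 each), 0.46 apart (SE 0.19). The quantity compares how each probe differed between groups and says nothing of how much of each arm was present. Among 20 hairpins with both arms tested, the arms differed in the same direction in 10 and in opposite directions in 10, with a median absolute gap of 0.16. Only miR-3102 had a larger gap than miR-139, at 0.71, and the next below was miR-144, a hairpin active in red blood cell precursors, at 0.42. miR-139 was chosen for its 5p difference, which makes up 0.32 of its gap of 0.46. Its place among the 20 is therefore no evidence about it. The rest of its gap comes from 1 dim miR-139-3p probe, with a difference of -0.14 (SE 0.17).

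**Figure D3:**
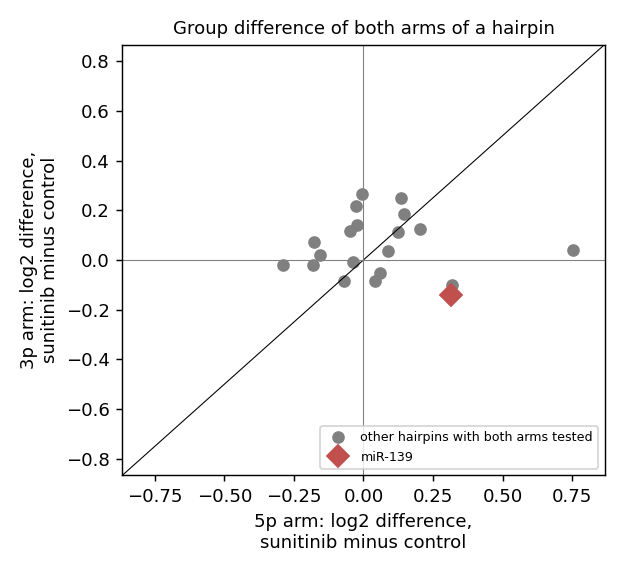
Difference in log2 signal, sunitinib minus control, of the 3p arm (vertical axis) against that of the 5p arm (horizontal axis) for the 20 hairpins with both arms tested, with miR-139 as a red diamond and a diagonal where both arms differ equally. The miR-139 pair lies at 0.32 for the 5p arm and -0.14 for the 3p arm, beside miR-144.

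The scanner software also writes one summed signal per miRNA, built from its probes. For miR-139-5p this equalled the sum of the 3 probe totals on every array, at 59.4, 44.8 and 49.8 units in sunitinib hearts, against 43.8, 43.5 and 37.1 units in control hearts, before any scaling. After scaling and log2 it averaged 5.67 ± 0.05 in sunitinib and 5.37 ± 0.06 in control (SD, n = 3 each), a difference of 0.30.

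For miR-139-3p the summed signal did not follow its probes. The probe totals added up to 2.81, 3.22 and 3.00 units in sunitinib hearts, against 3.50, 3.32 and 3.17 units in control hearts. The summed signal was instead 12576, 10475 and 10601 units in sunitinib hearts, against 11172, 11026 and 9676 units in control hearts, from 3053 to 4483 times the probe totals. This was the largest such ratio among the 237 tested miRNAs. miR-133b-3p, an abundant muscle miRNA, had summed signals of 12572, 10471 and 10597 units in sunitinib hearts, against 11168, 11023 and 9673 units in control hearts. The 2 miRNAs also had the same reported error on each of the 6 arrays, for example 1048 units on the array of sunitinib replicate 1 and 935 units on that of control replicate 1. On each array the preceding miRNA was taken in name order among those the scanner software itself marked as detected. For miR-139-3p this was miR-135a-1-3p on the 3 sunitinib arrays and miR-133b-3p on the 3 control arrays. miR-135a-1-3p was not among the 237 tested miRNAs. Its summed signals on the sunitinib arrays, 12573, 10472 and 10598 units, were themselves close to those of miR-133b-3p. The summed signal of the preceding miRNA plus the total of the longer miR-139-3p probe gave the summed signal of miR-139-3p to within -0.04 to 0.04 units on all 6 arrays.

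This relation was looked for after the values had been seen. Of the 237 tested miRNAs, 187 had a summed signal equal to the sum of their probe totals within 1% on all 6 arrays. Another 12, miR-139-3p among them, had a summed signal over 10 times their probe totals on all arrays, and for each of the 12 the excess matched the summed signal of another miRNA within 1%. Used as the level of miR-139-3p, the scaled summed signal averaged 13.45 ± 0.05 in sunitinib and 13.38 ± 0.08 in control in log2 units (SD, n = 3 each), a difference of 0.07, opposite in sign to the -0.14 of its probe. The miR-139-3p values by probe do not use the summed signal.

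**Figure D4:**
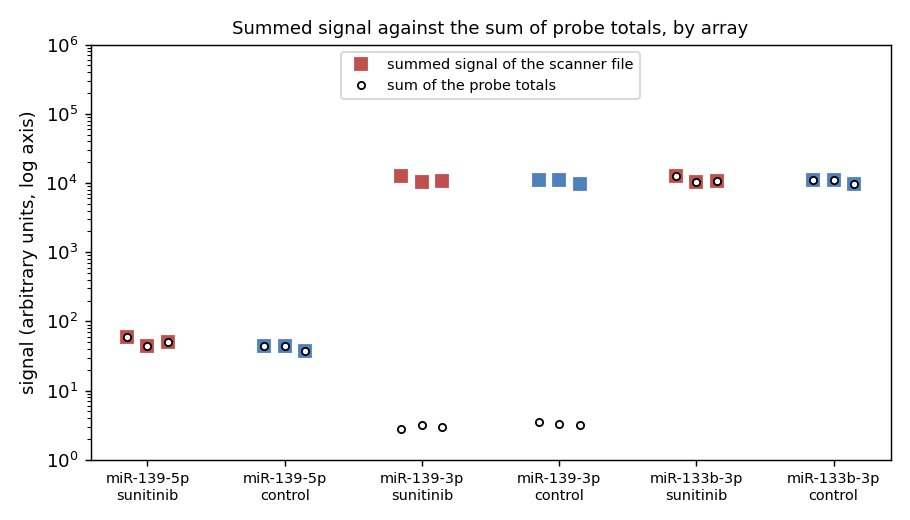
The scanner software's summed signal (squares) and the sum of probe totals (open circles) for miR-139-5p, miR-139-3p and miR-133b-3p on each array, in arbitrary units on a log axis, with sunitinib left of control. Squares and circles coincide for miR-139-5p and miR-133b-3p and stand 3053 to 4483 times apart for miR-139-3p, whose squares are level with those of miR-133b-3p.

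The deposited value table did not carry the summed signal of miR-139-3p. It gave miR-139-3p log2 values of 3.02, 3.13 and 3.01 in sunitinib hearts, against 3.14, 3.09 and 3.16 in control hearts, while miR-133b-3p stood at 14.2 to 14.4. The miR-139-3p means were 3.05 ± 0.07 in sunitinib and 3.13 ± 0.04 in control (SD, n = 3 each), a difference of -0.08. For miR-139-5p the table gave 6.93, 6.78 and 6.84 in sunitinib hearts, against 6.49, 6.52 and 6.64 in control hearts. Every sunitinib value of miR-139-5p lay above every control value there too, with means of 6.85 ± 0.07 in sunitinib and 6.55 ± 0.08 in control, a difference of 0.30. The table holds values of the same arrays and adds no independent sample.

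**Figure D5:**
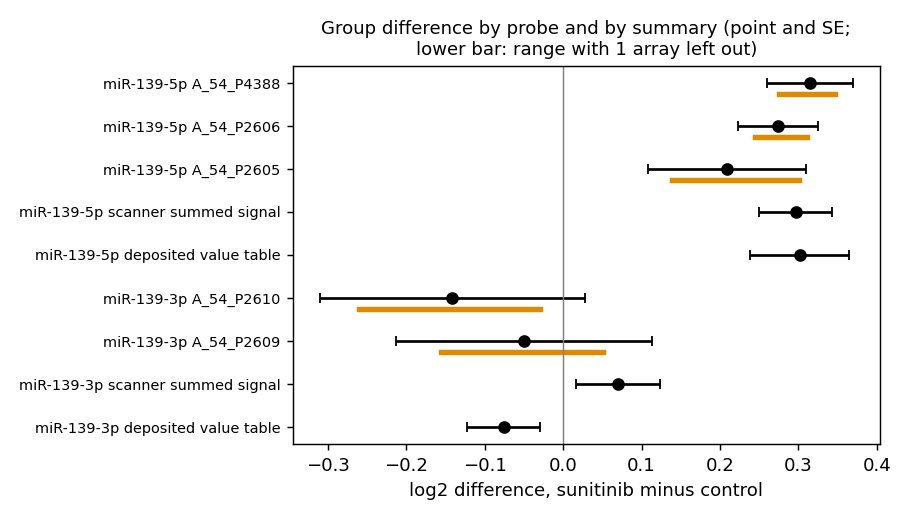
Difference of log2 signal, sunitinib minus control, for the 5 miR-139 probes, the scanner software's summed signal and the deposited value table, with black bars of 1 SE (n = 3 arrays in each group) and orange bars for the range with 1 array left out (probes only). The 5 miR-139-5p entries lie between 0.21 and 0.32, while those of miR-139-3p lie between -0.14 and 0.07, and the shorter miR-139-3p probe was not well above background.

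The 5 miRNAs whose log2 values followed the brightest miR-139-5p probe most closely over the 6 arrays, by Pearson's r among 236 compared, were miR-3960 (r = 0.98), miR-30a-5p (0.97), miR-5126 (0.97), miR-155-5p (0.97) and miR-30b-3p (0.97). With group means removed, r ran from 0.78 to 0.91 for these 5. They were picked by r over the same 6 arrays, so high values within groups can follow from that choice. The 6 points share the array and its scaling, so these are descriptions. Their differences between sunitinib and control varied in size, being largest for miR-3960 (0.77) and miR-5126 (0.65), then 0.26 for miR-30b-3p, 0.15 for miR-155-5p, a miRNA of activated leukocytes, and 0.14 for miR-30a-5p, which is abundant in heart muscle. miR-3960 read 7.16, 6.85 and 6.63 in sunitinib hearts, against 6.07, 6.16 and 6.12 in control hearts, and like miR-139-5p it was highest in sunitinib replicate 1. miR-139-3p had an r of -0.45 with its hairpin partner and ranked 183 of 236.

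Among 11 miRNAs reported to restrain cardiac hypertrophy or growth signalling, a list chosen with earlier results of these data known, 9 were tested. By limma's adjusted p, 0 rose and 0 fell, against 4 higher and 4 lower among all 237 (3.38% called). Of these 9, 7 had a difference above 0, with a median of 0.07, against 125 above 0 and a median of 0.02 over all 237. The largest difference was 0.19 (limma SE 0.09, limma adjusted p = 0.297) for miR-26a-5p, which restrains cell growth in several tissues. It was 0.14 for miR-185-5p (limma adjusted p = 0.346) and 0.11 for miR-133a-3p (limma adjusted p = 0.460), the muscle miRNA that limits growth of heart muscle cells in mice. For miR-101a-3p it was 0.10 (limma adjusted p = 0.615).

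Like miR-139, many miRNAs lie within protein-coding genes. Of 33 such intronic miRNAs on a list chosen in the same way, 26 were tested, and 0 rose and 1 fell, against 4 higher and 4 lower among all 237 (3.38% called). Of the 26, 12 were above 0, with a median of -0.01, against 125 above 0 and a median of 0.02 over all 237. The one that fell was miR-511-3p, hosted by the macrophage mannose receptor gene Mrc1. Its measured means were 2.61 in sunitinib, where 0 of 3 arrays had it well above background, and 4.58 in control, at least 2.16-fold lower in sunitinib (limma adjusted p = 0.00241). Only its control values qualified it for testing, so this p sets control signal against sunitinib values below the detection mark. Among 22 alternatives that gave a value it passed in 19. These are not the 22 planned earlier. They include the run with sunitinib replicate 2 left out and rescaled, chosen after seeing the data. A block for slide row left the measured difference at -2.02, against -1.97, with a limma adjusted p of 0.0783. Normexp background correction gave a difference of -0.31 (limma adjusted p = 0.144). It was run with an offset of 50 units added to every spot, which shrinks log2 differences of dim probes. That value therefore cannot show whether the fall depends on the background correction. The summed signal, which equalled the probe totals within 1% for 187 of the 237 tested miRNAs, gave -0.14 (limma adjusted p = 0.992). Whether miR-511-3p is one of those 187 is not given here, so this value may not measure its own probes. miR-511-3p was not among the 223 miRNAs left when detection on all 6 arrays was asked for. The next 3 by unadjusted p were miR-149-5p, hosted by the glypican gene Gpc1, at 0.23 (limma adjusted p = 0.204), miR-25-3p, hosted by the replication gene Mcm7, at 0.17 (0.246), and miR-208b-3p, hosted by the slow myosin gene Myh7, at 1.25 (0.263). None of these 3 passed.

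The tissue label was set against marker miRNAs. All 4 heart muscle markers and both endothelial markers were well above background on all arrays. Log2 summed levels of the heart muscle markers were 16.45 to 16.53 in sunitinib and 16.36 to 16.50 in control, and those of the endothelial markers 13.27 to 13.34 in sunitinib and 13.27 to 13.40 in control. The 3 leukocyte markers were also above background on all arrays, with a summed level of 8.29 to 8.60 in sunitinib and 9.06 to 9.22 in control. Of these 3, miR-223-3p (-1.32) and miR-142a-3p (-0.64) fell by limma's adjusted p, as 4 of all 237 miRNAs did, while miR-150-5p had a difference of 0.35 (limma adjusted p = 0.359). The 3 erythroid markers spanned 12.14 to 12.22 in sunitinib and 11.75 to 12.28 in control, and the 2 smooth muscle markers 9.29 to 9.35 in sunitinib and 9.34 to 9.51 in control. The part of the leukocyte difference in the miR-139 values was not tested. All 6 arrays lay on 1 slide, with 0 saturated spots and 234 to 242 miRNAs well above background in sunitinib and 237 to 252 in control.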

How the data were processed

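The deposited scanner files hold processed spot intensity from which, per the file headers, Agilent Feature Extraction had subtracted the background (version 10.7.1.1, genome build mm9) and the submitters' processing notes (10.7). The headers call a spot well above background at 13 background SDs. The deposited value table holds log2 values with the authors' processing, and no source used here states their scale, centring or steps. Its column medians were 2.195 to 2.2.

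Control spots and outlier-marked spots were left out. Signals were scaled by each array's 75th percentile over the 393 probes detected in that sense in every sample, floored at 1, put on log2 and averaged per probe. A miRNA took its brightest probe and was tested where all 3 arrays of either group showed it well above background. limma 3.58.1 (lmFit, eBayes; R 4.3.3) compared 3 sunitinib with 3 control samples, grouped by title, with no covariate. Sequences were handled in Python 3.11.15. The number of arrays limits the precision.

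Members and lists were chosen with earlier results of these data known. The 4 list members with the smallest unadjusted p and the 5 miRNAs most correlated with miR-139-5p are named. For miR-511-3p, the bound sets the control mean against the higher of its own value and the lowest signal well above background on each sunitinib array. Alternatives covered background, scaling, summary, filter, blocks, weights and left-out samples.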

Additional observations from a re-analysis of the deposited data

How the results depend on the processing

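The miR-139-5p difference was above 0 in all 24 alternatives, from 0.25 to 0.35, of which 4 (both filters, the floor of 4 and the replicate block) could not move it. Slide row as a block and the row with both groups alone are the same contrast (0.25), since the other row held only sunitinib arrays. The miR-139-3p difference ran from -0.26 to -0.003 except with the summed signal, at 0.0699. The -0.003 came from normexp, whose offset of 50 units added to every spot shrinks differences of dim probes. By probe, leaving out 1 array gave 0.28 to 0.35 for the 17-base, 0.24 to 0.31 for the 16-base and 0.14 to 0.30 for the 15-base miR-139-5p probe, and -0.26 to -0.03 for the longer miR-139-3p probe. Leaving out 1 array gave 2 to 8 calls against 8 with all arrays. Calls numbered 4 each with normexp, no scaling, quantile normalisation and the summed signal, which did not equal the probe totals for every miRNA. There were 3 calls with no filter, 13 with array weights and 1 with slide row as a block. The cause was not tested. With sunitinib replicate 2 left out and the rest rescaled, chosen after seeing the data, there were 17 calls.

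Same-numbered samples had correlations of deviations of 0.18, 0.22 and -0.06. With 3 samples in each group these values cannot show whether the numbers pair the samples. A replicate block gave 2 calls. It cannot change a difference of means here, 0.32 and -0.14. The dim miR-139-3p probe, with 10 to 15 of 15 spots above background, limits what can be said of that arm.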
